A study of Mus musculus with 6 samples.

Results

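The 9 genes described are classic glucocorticoid-response genes and, as a family relative of *Tsc22d3*, *Tsc22d4*. The classic genes are *Tsc22d3*, *Per1*, *Sgk1*, *Ddit4*, *Pik3ip1*, *Txnip*, *Klf9* and *Errfi1*. All 9 genes were followed in regulatory T cells (Tregs) sorted from B16.F10 melanomas. They were taken by symbol, all 9 had a row, and they stand among 12153 measured genes. Control libraries (3) came from recipients with floxed *Nr3c1* (Nr3c1-flox/flox), and Nr3c1-Foxp3Cre libraries (3) from recipients with the same floxed gene plus Foxp3-YFP/Cre. Every recipient carried the floxed gene, received B16.F10 cells and was sampled 15 days after inoculation. Cre is driven by the *Foxp3* promoter, so that *Nr3c1*, which encodes the glucocorticoid receptor (GR), is deleted in cells that express *Foxp3*. The control labels name no Cre or YFP allele, and effects of that allele and of GR loss cannot be told apart. The labels describe CD4+CD25+ sorted cells and the study's methods describe sorting on Foxp3-YFP. Age and sex per library are not given in the labels, and nothing states whether a library is 1 animal or a pool, so that p-values measure only the spread between these samples. Values are read counts scaled to library size (CPM) on the log2 scale, after quantile normalization by the authors, and a difference of 1 is a doubling or halving of CPM. The depth of each library is unknown.

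Glucocorticoids enter the cell and bind GR, which moves to the nucleus and binds DNA at glucocorticoid response elements, imperfect palindromes of the hexamer AGAACA spaced by any 3 bases. In lymphocytes the best known target is *Tsc22d3*, which encodes GILZ, a small leucine zipper protein that restrains NF-κB and AP-1. Other targets damp growth factor signaling or set metabolism and the clock, and several also respond to serum, hypoxia, glucose or time of day.

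The sorted cells carried T cell RNA together with RNA of other cells. All 7 T cell markers were measured, with a summed level of 4888 to 5972 CPM in control and 5317 to 5914 CPM in Nr3c1-Foxp3Cre libraries, and all 8 Treg markers, with 4361 to 5841 CPM and 4214 to 4664 CPM, while *Foxp3* itself was low, between 3.39 and 4.47 log2 CPM over the 6 libraries. All 7 melanoma markers were present, at a summed 3409 to 9134 CPM in control and 3802 to 9537 CPM in Nr3c1-Foxp3Cre libraries, as were 10 of 11 macrophage and dendritic cell markers (372 to 558 and 274 to 541 CPM). Of the fibroblast and endothelial markers 5 of 6 were measured, with sums that did not overlap (217 to 472 CPM in control, 135 to 209 CPM in Nr3c1-Foxp3Cre libraries). The collagens made up most of that sum. *Col1a1* was at 27.4% and *Col1a2* at 30.9% of control without overlap. *Col3a1*, the most abundant of the collagens, was at 37.7% with overlapping groups. *Pecam1*, listed as an endothelial marker, was higher without overlap at 121% of control, and the other endothelial marker listed, *Cdh5*, had no row. Of the 5 measured, 2 were lower and 1 higher without overlap, against 3.73% and 3.69% of all genes. None of them passed the adjusted threshold. Of 6 CD8 T and NK cell markers 2 had a row, *Cd8a* not among them, and of 4 B cell markers 0. In sorted bulk samples, fewer cells of a type and less RNA per cell cannot be told apart.

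Upstream sequence from RefSeq (GRCm38.p6) shows how differently the elements are laid out in these genes. The table holds 17 start-site windows for 8 of the 9 members, each from 250 bases before to 50 bases after a start. The full palindrome, AGAACA followed by 3 bases of any kind and TGTTCT, was searched on both strands like every motif here and occurred in 1 of the 17 and in 0.00913% of all 32851 windows. That window belongs to *Sgk1*. The looser core, GNACA followed by 3 bases of any kind and TGTNC (N is any base), occurred in 2 of the 17, the same *Sgk1* window and that of *Txnip*, against 0.475% of all windows. None of the 3 *Tsc22d3* windows held either form, and its most upstream start held only the half-site TGTTCT, which occurs in 19.0% of all windows and in 4 of the 17. The 250 bases before the start are shown for these 3 genes because *Tsc22d3* gave the largest change among the members and *Sgk1* holds the full palindrome. Capitals mark these elements, the E-box CACGTG (7.15% of windows) and the FoxO motif GTAAACA (3.65% of windows). The CRE motif TGACGTCA occurred in 1 of the 17, that of *Errfi1*, and in 1.79% of all windows.
Tsc22d3, minus strand, chrX:140600523-140600772: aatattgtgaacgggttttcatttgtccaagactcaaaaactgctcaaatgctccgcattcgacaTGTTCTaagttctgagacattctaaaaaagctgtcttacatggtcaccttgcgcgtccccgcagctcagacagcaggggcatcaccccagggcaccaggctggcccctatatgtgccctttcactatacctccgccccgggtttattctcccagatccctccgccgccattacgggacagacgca
Sgk1, plus strand, chr10:21993640-21993889: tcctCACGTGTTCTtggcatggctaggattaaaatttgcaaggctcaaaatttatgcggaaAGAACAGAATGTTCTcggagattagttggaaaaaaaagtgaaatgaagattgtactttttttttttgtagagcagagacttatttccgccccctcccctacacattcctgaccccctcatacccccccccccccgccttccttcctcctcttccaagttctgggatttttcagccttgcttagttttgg
Txnip, plus strand, chr3:96557707-96557956: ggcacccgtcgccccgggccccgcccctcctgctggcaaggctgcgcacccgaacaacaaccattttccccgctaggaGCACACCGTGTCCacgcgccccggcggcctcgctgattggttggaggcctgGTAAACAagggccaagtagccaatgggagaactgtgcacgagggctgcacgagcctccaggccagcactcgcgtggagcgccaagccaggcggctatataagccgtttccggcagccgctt
In *Sgk1* the palindrome lies 189 to 175 bases before that start, and the first capitals are an E-box that overlaps a half-site. In *Txnip* the core lies 172 to 160 bases and the FoxO motif 121 to 115 bases upstream. In *Tsc22d3* the half-site lies 185 to 180 bases upstream. These windows are short, and matches are descriptions of letters, not of binding.

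*Nr3c1*, the deleted gene, was at 7.15, 7.59 and 6.88 log2 CPM in the control libraries (replicates 1 to 3) and at 6.14, 5.45 and 5.90 in the Nr3c1-Foxp3Cre libraries. Every Nr3c1-Foxp3Cre library was below every control library, and the mean level was 38.4% of control (95% interval 27.6% to 53.4%). On the log2 scale the difference was -1.38 (standard error 0.21), which did not pass the threshold by limma with Benjamini-Hochberg adjustment over all genes (adjusted p = 0.120). *Nr3c1* RNA therefore remained measurable in all 3 Nr3c1-Foxp3Cre libraries.

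*Tsc22d3* (ENSMUSG00000031431.13, chromosome X, 140539528 to 140600659, minus strand, mm10) was the member that fell. It was at 7.78, 8.31 and 7.69 log2 CPM in control Tregs and at 6.45, 6.28 and 6.35 in Nr3c1-Foxp3Cre Tregs. The groups were 1.24 log2 units apart at their nearest libraries, while the Nr3c1-Foxp3Cre libraries spanned only 0.17 among themselves. The mean fell from 7.93 ± 0.33 to 6.36 ± 0.085 (SD, n = 3 each), a difference of -1.56 on the log2 scale (standard error 0.16; adjusted p = 0.0342 by limma), which left 33.8% of the control level (95% interval 26.5% to 43.2%). Its p ranked first of all 12153 genes. Of the 9 members, 1 passed the adjusted threshold, against 0.0576% of all genes (0.0494% lower and 0.00823% higher). The call was lost without control replicate 3 (adjusted p = 0.0712) or without Nr3c1-Foxp3Cre replicate 1 (0.0639), 2 (0.140) or 3 (0.154), while over 16 alternatives the log2 fold change stayed between -1.68 and -1.37 and the adjusted p lay between 0.000394 and 0.221. Because *Tsc22d3* is X-linked, *Xist* was read beside it: it differed by -0.051 on the log2 scale (standard error 0.43) with overlapping groups. *Xist* was between 2.92 and 4.65 log2 CPM over the 6 libraries, and the Y-linked genes *Ddx3y*, *Kdm5d*, *Eif2s3y* and *Uty* had no row. The part of sex in the result was not tested.

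**Figure D1:**
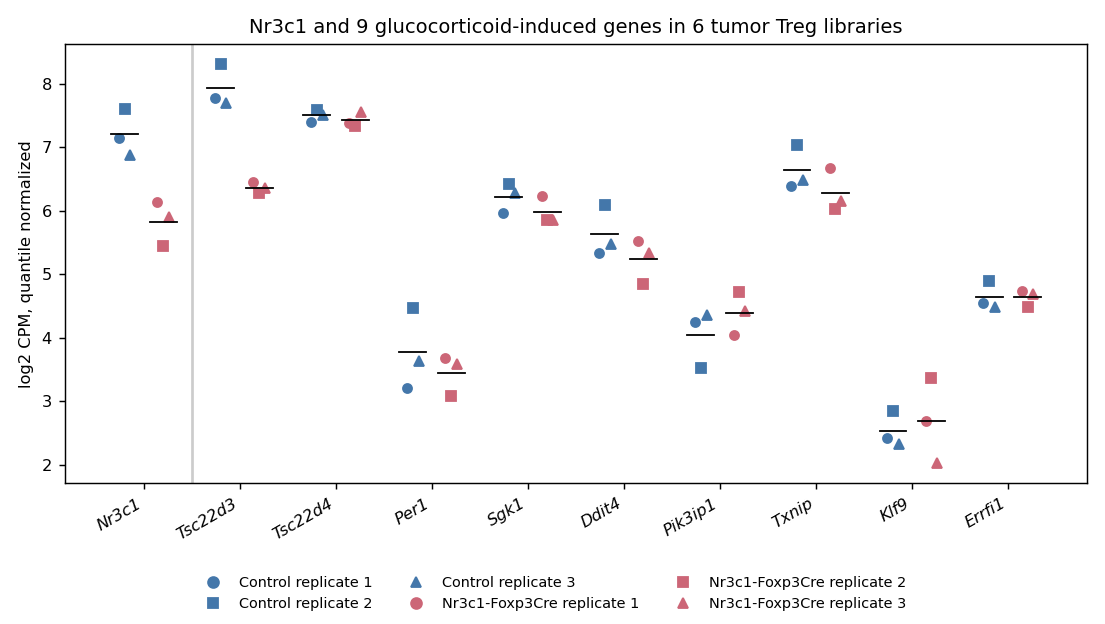
Level of *Nr3c1* and the 9 members in each library, as log2 CPM after quantile normalization. Blue points are the 3 control and red points the 3 Nr3c1-Foxp3Cre libraries, with the marker giving the replicate number and the black bar the group mean. *Nr3c1* and *Tsc22d3* separate the groups, and the other 8 members overlap.

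None of the other 8 members followed *Nr3c1* with separated groups. The groups overlapped for all 8, against 7.41% of all genes with separated groups (3.73% lower and 3.69% higher), and 0 of the 8 had an unadjusted limma p under 0.05, against 3.26% of all genes. Of these, 6 had a log2 fold change below 0 and 2 above it, with a median of -0.16, and 50.5% of all genes were below 0 with a median of -0.0014. The overlap depended on the library for some of them. Without Nr3c1-Foxp3Cre replicate 1 the groups of *Ddit4*, *Sgk1* and *Txnip* (lower) and *Pik3ip1* (higher) separated too, which makes 5 of 9 members against 16.3% of all genes. Without control replicate 1 *Sgk1*, and without Nr3c1-Foxp3Cre replicate 3 *Tsc22d4*, joined *Tsc22d3* (2 of 9 each, against 15.8% and 17.9%).

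*Tsc22d4*, included as a relative, belongs to the same TSC22 family as GILZ and shares its leucine zipper fold. It was at 7.40, 7.59 and 7.50 log2 CPM in control Tregs and at 7.39, 7.34 and 7.56 in Nr3c1-Foxp3Cre Tregs, with the highest value in control replicate 2 and the next in Nr3c1-Foxp3Cre replicate 3. It was the most tightly measured member. Its level in Nr3c1-Foxp3Cre Tregs was 95.1% of control, with a 95% interval of 81.2% to 111%, so that a fall of the size of *Tsc22d3* lies well outside the interval. The other measured family members were higher rather than lower, *Tsc22d1* by 0.29 (standard error 0.30) and *Tsc22d2* by 0.26 (standard error 0.27) on the log2 scale, neither past the threshold. Within the family, *Tsc22d3* alone passed the test.

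*Sgk1*, *Ddit4* and *Pik3ip1* act on the phosphoinositide 3-kinase and mTOR axis. *Sgk1* encodes a serum- and glucocorticoid-induced kinase that acts in parallel with Akt, *Ddit4* encodes REDD1, an inhibitor of mTORC1 that works through the TSC complex, and *Pik3ip1* encodes a membrane protein that inhibits phosphoinositide 3-kinase. *Sgk1* was at 5.96, 6.42 and 6.28 log2 CPM in control Tregs and at 6.22, 5.85 and 5.86 in Nr3c1-Foxp3Cre Tregs. Its Nr3c1-Foxp3Cre replicates 2 and 3 lay below every control library and replicate 1 did not. The level was 84.5% of control (95% interval 66.2% to 108%). This is the member whose upstream sequence, shown above, holds the full palindrome.

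*Ddit4* was at 5.34, 6.09 and 5.48 log2 CPM in control Tregs and at 5.52, 4.85 and 5.33 in Nr3c1-Foxp3Cre Tregs. Control replicate 2 was the highest library and Nr3c1-Foxp3Cre replicate 2 the lowest. It had the largest difference downward after *Tsc22d3*, -0.40 on the log2 scale (standard error 0.23), at 75.8% of control (95% interval 53.0% to 108%). *Pik3ip1* went the other way. It was at 4.24, 3.53 and 4.36 log2 CPM in control Tregs and at 4.05, 4.72 and 4.41 in Nr3c1-Foxp3Cre Tregs, lowest in control replicate 2 and highest in Nr3c1-Foxp3Cre replicate 2, and at 128% of control (95% interval 84.7% to 192%). An antisense gene, *Gm12592*, overlaps it, and nothing in the sources used here says that counting used strand, so that reads of the pair cannot be told apart.

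*Txnip* encodes an α-arrestin that binds thioredoxin and limits glucose uptake. It was at 6.38, 7.04 and 6.49 log2 CPM in control Tregs and at 6.67, 6.02 and 6.15 in Nr3c1-Foxp3Cre Tregs. As for *Sgk1*, Nr3c1-Foxp3Cre replicates 2 and 3 lay below all control libraries and replicate 1 lay among them, and the level was 78.1% of control (95% interval 56.4% to 108%). The antisense gene *Gm15441* overlaps *Txnip*, with the same limit. *Errfi1*, which encodes the feedback inhibitor MIG6 of EGF receptor family kinases, hardly differed: 4.55, 4.90 and 4.48 log2 CPM in control Tregs and 4.74, 4.48 and 4.69 in Nr3c1-Foxp3Cre Tregs. All 3 Nr3c1-Foxp3Cre libraries fell within the control range, and the level was 99.5% of control (95% interval 76.4% to 130%).

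*Per1*, a repressor of the circadian clock, and *Klf9*, a Krüppel-like transcription factor, were the lowest expressed and least precisely measured members. *Per1* was at 3.21, 4.47 and 3.64 log2 CPM in control Tregs and at 3.68, 3.08 and 3.59 in Nr3c1-Foxp3Cre Tregs. Control replicate 2 stood apart from the other 5 libraries, and without it the log2 fold change moved from -0.32 to 0.028. The level was 80.0% of control, with a 95% interval of 48.1% to 133%, the only interval among the 8 that reaches below 50%. *Klf9* was at 2.41, 2.84 and 2.32 log2 CPM in control Tregs and at 2.68, 3.36 and 2.02 in Nr3c1-Foxp3Cre Tregs, so that the Nr3c1-Foxp3Cre libraries held both its highest and its lowest value. It was at 112% of control (95% interval 63.9% to 197%).

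**Figure D2:**
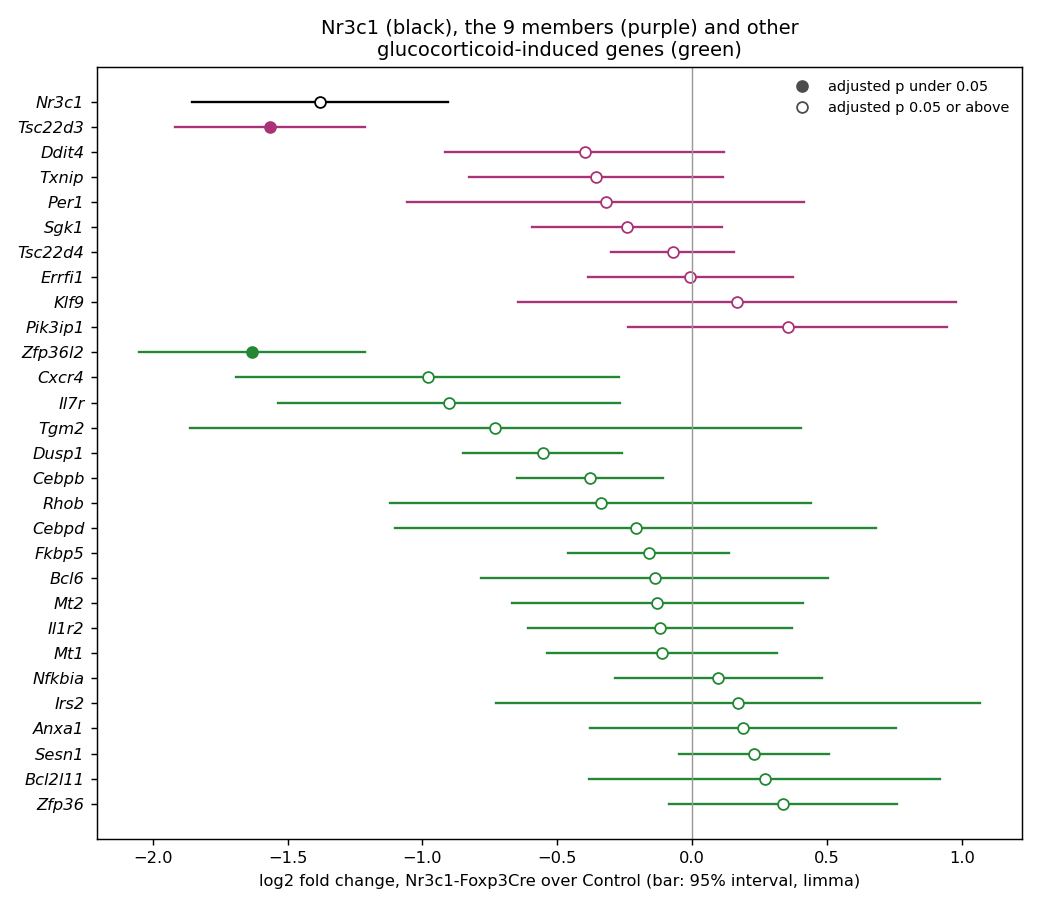
Log2 fold change of Nr3c1-Foxp3Cre over control Tregs with its 95% interval from limma, for *Nr3c1* (black), the 9 members (purple) and 19 genes of a wider glucocorticoid-induced list (green), with filled points for an adjusted p under 0.05. The filled points are *Tsc22d3* at -1.56 and *Zfp36l2* at -1.63, and the intervals of the other 8 members all include 0.

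The log2 CPM of *Tsc22d3* minus that of each other member was then compared within libraries. Nr3c1-Foxp3Cre minus control, the mean of this signed difference was -1.17 for *Ddit4*, the least of the 8, and -1.92 for *Pik3ip1*, the most. The groups did not overlap for any of the 8 pairs (exact two-sided permutation test, p = 0.1 for each and 0.1 after Benjamini-Hochberg adjustment over 8 pairs, the lowest this design permits). The same separation held for 95.4% of all genes set against *Tsc22d3*, a share near that of the 8 pairs. For *Tsc22d4* the difference changed sign: it was 0.38, 0.72 and 0.19 in control libraries and -0.93, -1.05 and -1.20 in Nr3c1-Foxp3Cre libraries.

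Levels of different genes were compared per kilobase (kb) of the longest principal transcript in GENCODE M21. In all 3 control libraries *Tsc22d3* was the highest of the 9 members, at 6.95 log2 CPM per kb on average, followed by *Tsc22d4* at 5.51, *Txnip* at 5.15, *Sgk1* at 4.93 and *Ddit4* at 4.82. *Sgk1* and *Ddit4* exchanged places in control replicate 2, and *Txnip* was above both in all 3 control libraries. *Errfi1* (3.04), *Pik3ip1* (2.68) and *Per1* (1.55) were lower, and *Klf9* (0.36) was the lowest. In Nr3c1-Foxp3Cre libraries *Tsc22d3* was at 5.38 and *Tsc22d4* at 5.43, and their difference per kb, between -0.19 and 0.079 over the 3 libraries, changed sign among them. The order in Nr3c1-Foxp3Cre libraries depends on the length used: per kb of all annotated exons *Tsc22d3* took place 4, 3 and 4 of the 9, against place 1, 2 and 2 per kb of transcript. It was first in every control library on either length.

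Libraries of the same genotype also differed in a way that most members shared. Control replicate 2, where *Nr3c1* was highest, had the highest control value for 8 of 9 members, against 39.2% of all genes, and *Pik3ip1* was at its lowest there. Among the Nr3c1-Foxp3Cre libraries, *Nr3c1* RNA was highest in replicate 1, then 3, then 2. The same order was found for 6 of 9 members, *Tsc22d3*, *Per1*, *Sgk1*, *Ddit4*, *Txnip* and *Errfi1*, against 17.9% of all genes, and all 6 were also highest in control replicate 2, against 10.2% of all genes. *Tsc22d4* and *Klf9* did not have this order, and *Pik3ip1* had the reverse order, in both groups. For *Tsc22d3* these steps were small beside the difference between genotypes, 0.17 across the Nr3c1-Foxp3Cre libraries and 0.62 across the controls, whereas for *Ddit4* (0.67 and 0.75) and *Txnip* (0.66 and 0.66) they exceeded the shift between the group means.

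RNA of every Treg marker was highest among controls in replicate 2. Among Nr3c1-Foxp3Cre libraries *Foxp3*, *Ctla4*, *Ikzf2*, *Il10* and *Il2ra* also had the order 1, 3, 2, and the other Treg markers did not. Among Nr3c1-Foxp3Cre libraries *Ccr8* was at 8.578, 8.291 and 8.581 log2 CPM in replicates 1 to 3, nearly equal in replicates 1 and 3. *Tnfrsf18* and *Tnfrsf4* were lowest in replicate 1, at 10.33 and 10.35 log2 CPM, and highest in replicate 3, at 10.55 and 10.61. *Foxp3* was highest among controls in replicate 2, at 4.42 log2 CPM, and was at 4.47, 3.50 and 3.90 in Nr3c1-Foxp3Cre replicates 1 to 3. The mean log2 CPM of the 8 Treg markers was 7.79, 8.41 and 7.99 in control libraries and went from 8.14 in Nr3c1-Foxp3Cre replicate 1 to 7.69 in replicate 2, with replicate 3 between them, again highest in control replicate 2 and in the order 1, 3, 2, while their summed CPM was highest in Nr3c1-Foxp3Cre replicate 3 (4664 CPM). *Cd4* had the same pattern as *Foxp3* (9.32 in control replicate 2, and 9.24, 8.78 and 9.02). Among Nr3c1-Foxp3Cre libraries *Cd3e* and *Cd5* also had the order 1, 3, 2. *Cd2*, *Cd3d* and *Lck* instead rose from replicate 1 to replicate 3, and *Cd3g* was highest in replicate 3. The mean of the 7 T cell markers was highest in control replicate 2 (9.59) and, among Nr3c1-Foxp3Cre libraries, in replicate 3 (9.51). The part of these markers in the order of libraries was not tested.

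Summed melanoma marker RNA was lowest among controls in replicate 2 (3409 CPM). Among Nr3c1-Foxp3Cre libraries it was highest in replicate 2 (9537 CPM) and lowest in replicate 3 (3802 CPM). When the mean of the melanoma markers entered the fit as a covariate, an alternative added after seeing the data, *Tsc22d3* differed by -1.58 on the log2 scale (adjusted p = 0.000394 by limma) and 0 of the other 8 members passed. *Ddit4* had an unadjusted limma p of 0.0215 in that fit and an adjusted p of 0.784. The part of melanoma RNA in the order of libraries was not tested.

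**Figure D3:**
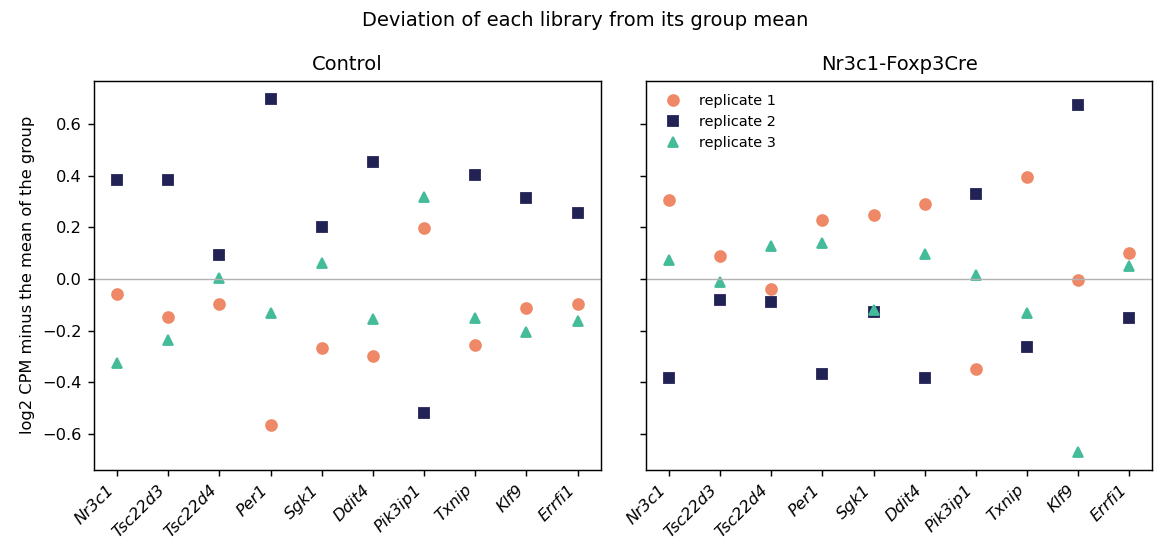
Deviation of each library from the mean of its group, in log2 CPM, for *Nr3c1* and the 9 members, controls on the left and Nr3c1-Foxp3Cre libraries on the right. Control replicate 2 lies above 0 for *Nr3c1* and every member except *Pik3ip1*, and among Nr3c1-Foxp3Cre libraries replicate 1 is the highest for *Nr3c1* and 6 members.

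**Figure D4:**
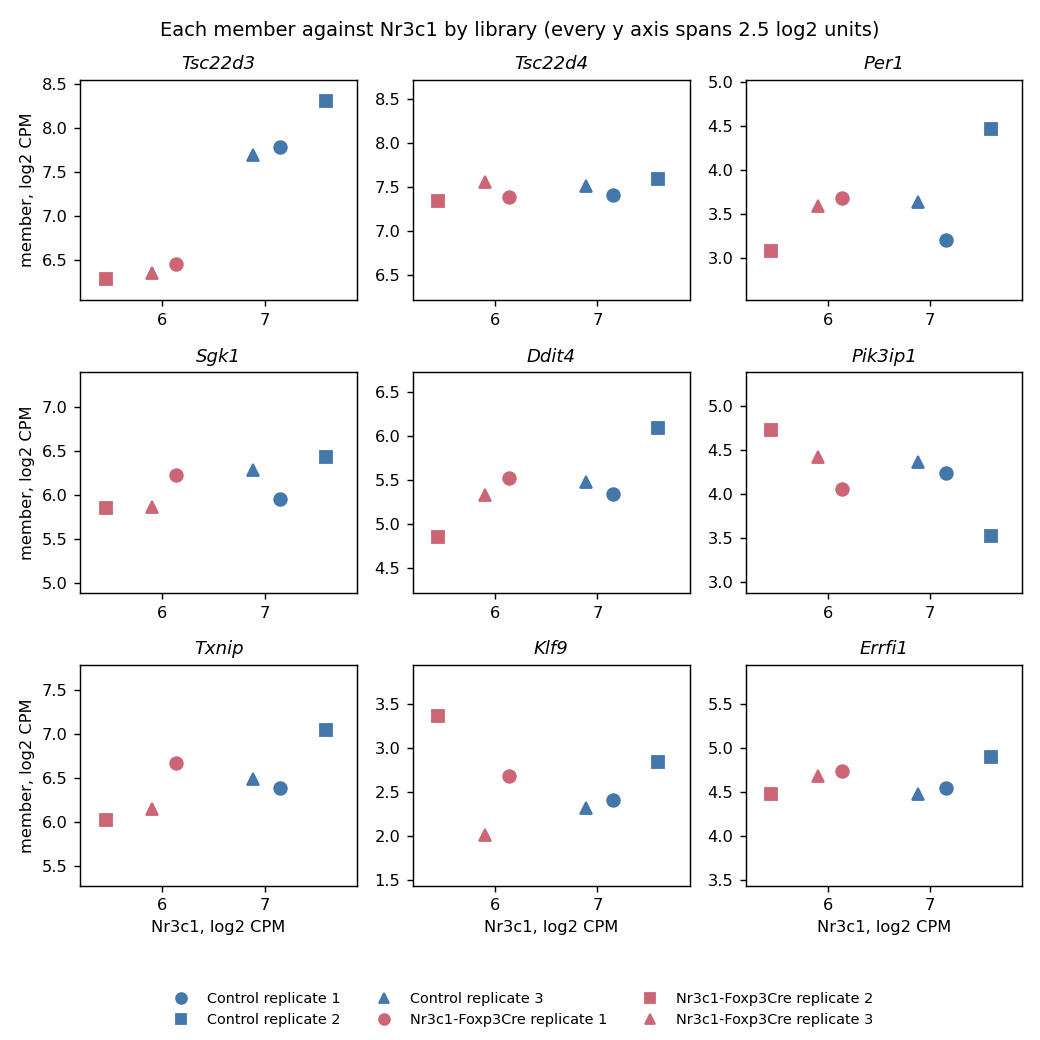
Level of each member (y axis, log2 CPM, each spanning the same range) against that of *Nr3c1* (x axis, log2 CPM) in the 3 control (blue) and 3 Nr3c1-Foxp3Cre (red) libraries. For *Tsc22d3* the red points lie at least 1.24 log2 units below the blue ones, and for the other members red and blue points overlap in height.

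A wider list of 22 glucocorticoid-induced genes had 19 measured. Of these 1 passed the adjusted threshold, against 0.0576% of all genes. This gene, *Zfp36l2*, encodes an mRNA decay factor that restrains T cell activation. It was at 7.96, 8.63 and 8.45 log2 CPM in control Tregs and at 7.01, 6.66 and 6.48 in Nr3c1-Foxp3Cre Tregs, a difference of -1.63 (standard error 0.19; adjusted p = 0.0373 by limma) with no overlap. Its call was lost without control replicate 3 (0.217) or without Nr3c1-Foxp3Cre replicate 1 (0.0639), 2 (0.140) or 3 (0.161), and over 16 alternatives the adjusted p lay between 0.00275 and 0.273. The groups of 3 further genes were lower without overlap and did not pass: *Dusp1*, a MAP kinase phosphatase, at 68.1% of control, *Il7r*, the interleukin-7 receptor chain, at 53.5%, and *Cebpb*, a transcription factor, at 76.9%. *Sesn1* was higher without overlap (0.23 on the log2 scale, standard error 0.12), and the median over the 19 genes was -0.14. In all, 4 of the 19 were lower and 1 higher without overlap, against 3.73% and 3.69% of all genes. *Cxcr4* was at 50.7% of control, with overlapping groups, and did not pass. *Fkbp5*, which encodes a GR co-chaperone, was at 89.4% of control with overlapping groups.

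None of the measured relatives of the members passed the test. Of 21 paralogs 19 were measured, of which 4 had a log2 fold change below 0 and the median was 0.26. *Klf11*, *Klf10* and *Klf3*, relatives of *Klf9*, were higher without overlap, by 0.64 (standard error 0.24), 0.32 (standard error 0.13) and 0.36 (standard error 0.16), and none passed. *Sgk3* was at 87.2% of control and *Arrdc4*, which like *Txnip* encodes an α-arrestin, at 102%. *Per2* and *Per3* had no row.

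The proteins on which the members act, and programs that can also move them, were counted in the same fit. Of 30 targets and partners, such as the TSC complex, mTOR and thioredoxin, 28 were measured, 0 passed, and the median was 0.037. *Tsc1*, a subunit of the complex through which REDD1 acts, was higher without overlap by 0.58 (standard error 0.21). Of 21 clock genes 18 were measured and 0 passed, with a median of 0.12 and 1 gene, *Nr1d1*, higher without overlap. Among 12 hypoxia genes 0 passed and 0 separated, with a median of 0.062. Of 16 FoxO-driven quiescence genes 15 were measured and 0 passed, with a median of 0.16. In that list *Il7r* and *Ccr7* were lower and *Sesn1* was higher without overlap. Of 20 immediate early and dissociation stress genes, 4 of which are members, 0 passed, 1 was lower and 3 higher without overlap, and the median was 0.13. *Nr4a1*, induced by T cell receptor signaling, was among the higher at 0.45 (standard error 0.13). These lists share genes with each other and with the members, and over all genes the median was -0.0014.

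The genes most like *Tsc22d3* across the 6 libraries were ranked by Pearson's r among 1649 other genes whose SD was at least 0.5. The 6 points fall into the groups of the design, so that r mostly measures the step between genotypes. The nearest were *Trav14-1* (0.977), *Nr3c1* (0.974), *Zfp36l2* (0.968), *Tmem254b* (0.966) and *Slc43a1* (0.963). No other member reached an SD of 0.5 over the libraries. *Trav14-1* and *Tmem254b* belong to groups of near-identical gene copies, whose reads the counting could divide, and their values are uncertain.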

How the data were processed

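RNA was sequenced from 3 control and 3 Nr3c1-Foxp3Cre libraries, grouped by sample title. The authors used Cutadapt for trimming, STAR for alignment to mm10 and RSEM with GENCODE M21 for quantification, removed genes under a CPM limit and quantile normalized. The deposited values are log2 CPM, so limma-trend stood in for the authors' voom, whose weights need counts. The fit took in all 12153 genes and used limma 3.58.1 (R 4.3.3; lmFit, eBayes with a trend, genotype only), with Benjamini-Hochberg adjustment at 0.05. Single values were compared with exact two-sided permutation tests. On simulated data of 12153 genes the fit recovered 54.3%, 87.3% and 92.0% of genes changed by 1, 2 and 3 log2 units, with 3.97% of calls false. Each simulation changed 200 genes and drew noise independently for every gene and library. In the deposited data 7 genes were called, so the adjustment was stricter there. These shares are therefore not the recovery to be had in the deposited data. Members, lists and tests were chosen with earlier results of these data known. Named genes were the members, *Nr3c1*, list genes that passed, separated or are relatives of a member, and the 5 genes most like *Tsc22d3*. *Fkbp5* and *Arrdc4* were named as a textbook GR target and as a relative. *Cxcr4* and *Col3a1* were named after seeing their values. Coordinates came from GENCODE M21 (12130 genes matched) and upstream sequences from RefSeq. Alternatives were other eBayes settings, weights, filters, scalings, a pseudocount of 1, a replicate block and leaving out each library.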

Additional observations from a re-analysis of the deposited data

How the results depend on the processing

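With 7 genes and 1 member called in the reported fit, eBayes without a trend and the replicate block each called 0 genes and 0 members (469 and 275 genes at an unadjusted p under 0.05), and *Tsc22d3* was at -1.56 in both (limma adjusted p = 0.221 and 0.137). Sample quality weights, which were 7.47 for control replicate 3 and from 0.52 to 0.86 for every other library, called 19 genes. That fit therefore rests mostly on 1 control library for the control level. The melanoma covariate, added after seeing the data, called 18 genes, and *Tsc22d3* was the only member called in each fit. *Nr3c1* passed only with that covariate, at -1.40 (limma adjusted p = 0.00415). Without 1 replicate, from 0 to 8 genes and from 0 to 1 member were called, from 1 to 5 members separated, and *Tsc22d3* ranged from -1.68 to -1.37. Signs turned for small differences: *Errfi1* was at 0.14 with sample quality weights and ranged from -0.088 to 0.12 without 1 replicate, *Per1* from -0.60 to 0.028, *Klf9* from -0.17 to 0.50 and *Arrdc4* from -0.20 to 0.30. The cause was not tested. Deviations of same-numbered libraries correlated at -0.12, -0.33 and -0.025 across genes, and those of unlike-numbered libraries at -0.27 to 0.36. Deviations from means of 3 libraries constrain each other, so these values cannot decide whether replicate numbers pair libraries. None of the other 8 members passed in any of 16 alternatives. Among 160 values for *Nr3c1* and the members, 148 kept direction and call, 6 lost a call, 1 gained one and 5 changed sign. How far read depth limits the lowest members, *Klf9* and *Per1*, cannot be stated because the table holds no counts, and quantile normalization could not be undone.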
